A study of Mus musculus with 4 samples.

Results

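The scavenger and mannose receptors described here are 10 genes, Stab1, Stab2, Msr1, Marco, Colec12, Cd36, Scarb1, Cd68, Mrc1 and Lrp1, out of 24055 genes tested. Of these 24055, 14492 had a RefSeq symbol, and each other entry is a name from the scanner output counted as a gene. The array probes of the 10 receptor genes were found through the RefSeq accession that the scanner output gives for each spot. All 10 genes had at least 1 probe, and the 14 probes in all passed the filter on dim probes and were well above background on each of the 4 arrays. The cells were primary Kupffer cells, the macrophages that reside in the liver sinusoids, from male C57BL/6 mice 8 weeks of age, enriched on a Percoll gradient with no cell sort named in the labels. After isolation and plating they were kept for 24 h in RPMI with 0.1% serum that held either 200 nM maresin 1 (MaR1, 2 arrays) or its ethanol vehicle (Veh, 2 arrays). Maresin 1 is a lipid mediator made by macrophages from docosahexaenoic acid. Nothing in the labels tells if replicate arrays stand for separate animals or cultures, so the p-values reflect array-to-array spread that may be technical. All 4 arrays were on 1 slide, with each group at positions of its own, so that position and group cannot be told apart.

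Scavenger receptors are a structurally mixed group of membrane proteins that bind modified lipoproteins, polyanions, bacterial surfaces, apoptotic cells and spent plasma or matrix proteins, and carry them into endosomes and lysosomes. The mannose receptor and LRP1 are endocytic receptors of other families that clear glycoproteins and protease-inhibitor complexes. In the liver, Kupffer cells and the neighbouring sinusoidal endothelial cells share much of this clearance, and several of the receptors are made by both.

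The receptors did not move in 1 direction. With maresin 1, 3 of the 10 genes rose (Mrc1, Stab2 and Cd36), 3 fell (Stab1, Msr1 and Lrp1) and 4 did not pass the test (Marco, Scarb1, Colec12 and Cd68), by limma's moderated test with Benjamini-Hochberg adjustment over all genes tested. Thus 6 of 10 were called, beside 24% of all genes tested (11.2% as higher and 12.8% as lower with MaR1); the genes were chosen with results known, so no test was made of that share. At the brightest probe of each gene the MaR1 and Veh arrays did not overlap for 8 of the 10 genes, the exceptions being Cd68 and Colec12. The same held for 69.6% of all genes tested, so that this count is near the background. The median log2 difference of the 10 genes was -0.08, beside -0.02 for all genes tested. Of the 6 calls, those of Stab1, Msr1 and Mrc1 held whichever array was left out and those of Stab2, Cd36 and Lrp1 did not. In what follows a level is the log2 processed signal relative to the 75th percentile of its array, so that 0 is the signal at that percentile. A difference is the MaR1 mean minus the Veh mean of these levels with the SE of the fit (n = 2 arrays per group throughout). Levels are compared between arrays for 1 probe and not between genes, since probes differ in how brightly they bind.

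**Figure D1:**
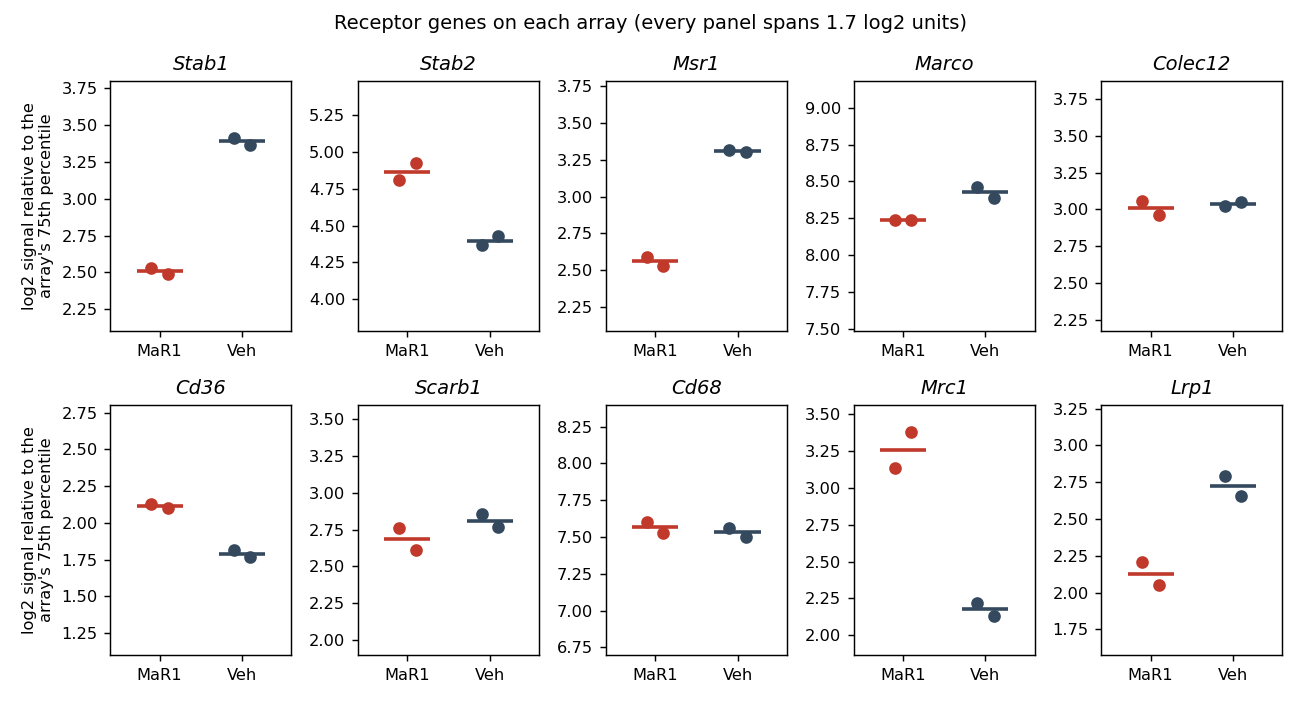
Level of each receptor gene at its brightest probe on every array, as log2 signal relative to the array's 75th percentile (points, 1 per array; lines, group means, n = 2), with MaR1 left of Veh and every panel drawn to the same span. Mrc1, Stab2 and Cd36 sit higher on both MaR1 arrays, Stab1, Msr1 and Lrp1 sit lower on both, and the groups overlap for Cd68 and Colec12.

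The stabilins, a pair of very large multi-domain receptors, changed in opposite directions. Stab1, whose product stabilin-1 takes up SPARC, acetylated lipoproteins and apoptotic cells and sorts cargo between endosome and Golgi, had levels of 2.53 and 2.49 on the MaR1 arrays, against 3.41 and 3.37 on the Veh arrays. Both MaR1 arrays were lower than both Veh arrays, by far more than the replicates differed from each other. Stab1 was 1.84-fold lower with MaR1, a log2 difference of -0.88 ± 0.06 (adjusted p = 0.00387), larger in size than that of 95.2% of all genes tested. Without any 1 array the difference lay between -0.90 and -0.86, with adjusted p between 0.0250 and 0.0325.

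Stab2 encodes stabilin-2, the main hyaluronan clearance receptor of the liver sinusoid, best known from sinusoidal endothelial cells. Its levels were 4.81 and 4.92 on the MaR1 arrays, against 4.37 and 4.43 on the Veh arrays. Both MaR1 arrays were higher, with no overlap. The gene rose 1.38-fold, a difference of 0.47 ± 0.07 (adjusted p = 0.0185). A separate Stab2 probe had levels of 3.17 and 3.07 on the MaR1 arrays, against 2.67 and 2.66 on the Veh arrays, and gave 0.45 ± 0.06 (adjusted p = 0.0157 over all probes). The call at the brightest probe was lost without MaR1 replicate 2 (adjusted p = 0.0705), Veh replicate 1 (0.0881) or Veh replicate 2 (0.0680), and when dim probes were not filtered out (0.0594).

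Within each array the log2 ratio of Stab2 to Stab1 does not depend on a scaling by 1 factor per array. It was 2.28 and 2.44 on the MaR1 arrays, against 0.95 and 1.06 on the Veh arrays, a shift of 1.35 with no overlap between the groups. Methods that are not a single factor kept both directions. The differences were 0.37 for Stab2 and -0.94 for Stab1 after quantile normalization and 0.38 and -0.87 after normexp background correction. For Stab2 both values were smaller than the 0.47 given above. By an exact permutation test on this single value, 2 arrays against 2 cannot give a two-sided p below 0.333, which is the p found.

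Because Stab1 and Stab2 moved apart and Mrc1 rose most, the region around the annotated start of these 3 genes is shown, 250 bases before to 50 after, from RefSeq in build GRCm38.p6. Of the 10 genes, 7 had such an entry. Capitals mark matches, on both strands, to GAGGAA, the core bound by the macrophage factor PU.1, or to AGGTCA, the hexamer of many nuclear receptors. No matches overlapped.
Stab1 (chr14:31168592-31168891, minus strand): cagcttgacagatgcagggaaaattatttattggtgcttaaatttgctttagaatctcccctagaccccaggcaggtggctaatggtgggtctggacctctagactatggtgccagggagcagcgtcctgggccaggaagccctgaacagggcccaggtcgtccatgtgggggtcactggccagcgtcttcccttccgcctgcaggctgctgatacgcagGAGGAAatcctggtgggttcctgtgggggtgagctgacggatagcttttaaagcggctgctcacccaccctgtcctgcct
Stab2 (chr10:87007893-87008192, minus strand): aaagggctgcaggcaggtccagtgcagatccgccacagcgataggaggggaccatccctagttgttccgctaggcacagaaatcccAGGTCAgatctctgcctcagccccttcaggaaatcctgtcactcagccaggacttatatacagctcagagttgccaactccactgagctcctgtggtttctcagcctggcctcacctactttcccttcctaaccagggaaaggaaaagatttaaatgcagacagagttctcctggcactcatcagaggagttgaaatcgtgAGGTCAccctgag
Mrc1 (chr2:14229164-14229463, plus strand): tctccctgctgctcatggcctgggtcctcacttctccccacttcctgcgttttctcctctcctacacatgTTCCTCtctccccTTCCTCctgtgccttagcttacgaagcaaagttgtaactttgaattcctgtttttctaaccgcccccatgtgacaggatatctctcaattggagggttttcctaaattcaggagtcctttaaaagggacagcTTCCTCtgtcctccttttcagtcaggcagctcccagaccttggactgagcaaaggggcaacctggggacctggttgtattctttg
The Stab1 region held 1 PU.1 core, that of Mrc1 held 3 and that of Stab2 held 0. The nuclear receptor hexamer was found 2 times in Stab2 and 0 times in Stab1 and Mrc1. Among the receptor genes not shown, the PU.1 core was found 2 times in Cd68, 1 time in Marco and 0 times in Cd36 and Lrp1. The hexamer was found 1 time in Cd36 and 0 times in Cd68, Marco and Lrp1. Of 32851 such regions, 28.3% held the PU.1 core and 16.3% the hexamer. These shares count regions with at least 1 match, so they give no background for several matches in 1 region. The STAT6 palindrome (6.95% of regions) and the TFE-type E-box CACGTG (7.15%) were searched as well, and neither was in the 3 windows shown. The STAT6 palindrome was found 1 time in Cd36. The matches describe letters in these windows and no binding was measured.

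Among the collagen-stalked class A receptors, Msr1 fell, whereas Marco and Colec12 did not pass. Msr1 encodes the macrophage scavenger receptor A, which takes up acetylated and oxidised low-density lipoprotein and bacterial surface molecules. Its levels were 2.59 and 2.53 on the MaR1 arrays, against 3.32 and 3.30 on the Veh arrays. The replicates lay close together and the groups well apart. Msr1 was 1.68-fold lower with MaR1, a difference of -0.75 ± 0.06 (adjusted p = 0.00518), and a separate probe gave -0.66 ± 0.06 (adjusted p = 0.00590 over all probes). At that probe the levels were 2.09 and 2.04 on the MaR1 arrays, against 2.72 and 2.73 on the Veh arrays. Without any 1 array the difference at the brightest probe stayed between -0.78 and -0.72, with adjusted p between 0.0278 and 0.0356.

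Marco encodes a receptor of the same class for bacteria and particles that is abundant on Kupffer cells. Its levels were 8.24 and 8.24 on the MaR1 arrays, against 8.46 and 8.39 on the Veh arrays. The MaR1 arrays were lower without overlap, but the difference of -0.19 ± 0.06 did not pass (adjusted p = 0.0905). Its 95% interval before adjustment, -0.35 to -0.03, did not reach that of Msr1 (-0.91 to -0.59). The Marco spots reached at most 40.3% of the scanner's saturation value, and none was marked as saturated. With a variance trend in the fit Marco passed (adjusted p = 0.00952).

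Colec12 encodes a scavenger receptor with a collagen stalk and a C-type lectin domain, known from endothelium. It had levels of 3.05 and 2.96 on the MaR1 arrays, against 3.02 and 3.05 on the Veh arrays. The groups overlapped and the difference was -0.03 ± 0.06 (95% interval -0.20 to 0.14, adjusted p = 0.748). In the within-array ratios, Marco over Msr1 was 0.56 higher and Colec12 over Msr1 0.72 higher with MaR1 on the log2 scale, neither with overlap (exact permutation p = 0.333 for each, the smallest possible).

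The class B receptors span the membrane at both ends and exchange lipids with lipoproteins. Cd36, whose product takes up long-chain fatty acids and oxidised lipoprotein and binds thrombospondin, had levels of 2.13 and 2.10 on the MaR1 arrays, against 1.82 and 1.77 on the Veh arrays. Both MaR1 arrays were higher, and the groups were separated by more than the replicates. Cd36 rose 1.25-fold, a difference of 0.32 ± 0.06 (adjusted p = 0.0265). This was the least secure of the 6 calls. Leaving out any 1 array ended it (adjusted p = 0.0911 without MaR1 replicate 1, 0.0869 without MaR1 replicate 2, 0.0989 without Veh replicate 1 and 0.123 without Veh replicate 2), and it was also lost when dim probes were not filtered out (0.0594).

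Scarb1 encodes SR-BI, the receptor for selective uptake of cholesteryl ester from high-density lipoprotein. Its levels were 2.76 and 2.61 on the MaR1 arrays, against 2.85 and 2.77 on the Veh arrays. The MaR1 replicates differed from each other by more than the group means did, and the difference of -0.13 ± 0.08 did not pass (95% interval -0.34 to 0.09, adjusted p = 0.299). A dimmer probe, for another RefSeq transcript of the gene, gave -0.09 ± 0.07 (adjusted p = 0.380 over all probes). The within-array log2 ratio of Cd36 to Scarb1 was -0.63 and -0.51 on the MaR1 arrays, against -1.04 and -1.00 on the Veh arrays, a shift of 0.45 (exact permutation p = 0.333, the smallest possible).

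Cd68, the class D member, encodes a heavily glycosylated lysosomal protein that is widely used as a macrophage marker. Its levels were 7.60 and 7.53 on the MaR1 arrays, against 7.56 and 7.50 on the Veh arrays. The groups overlapped at this probe, and the difference was 0.04 ± 0.06 (95% interval -0.14 to 0.21, adjusted p = 0.704). At a separate probe it was 0.06 ± 0.06 (adjusted p = 0.465 over all probes). The levels there were 6.58 and 6.54 on the MaR1 arrays, against 6.50 and 6.51 on the Veh arrays, without overlap. The sign of so small a value was not stable at the brightest probe. In the authors' value table, as with quantile normalization, it was -0.03.

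Mrc1 rose most of the 10 genes. It encodes the mannose receptor CD206, a C-type lectin that clears glycoproteins ending in mannose, fucose or N-acetylglucosamine and is a standard marker of alternatively activated macrophages. Its levels were 3.13 and 3.38 on the MaR1 arrays, against 2.22 and 2.13 on the Veh arrays. The MaR1 replicates lay farther apart than those of any other receptor gene, yet both were well above both Veh arrays. Mrc1 rose 2.11-fold, a difference of 1.08 ± 0.10 (adjusted p = 0.00736), larger in size than that of 97.0% of all genes tested. Without any 1 array it lay between 0.96 and 1.20, with adjusted p between 0.0229 and 0.0371. Dendritic cells can express Mrc1 too, and their markers moved unevenly. Of 10 listed, 9 were measured, 6 rose and 0 fell (66.7% called, beside 24% of all genes tested), and 2 of the 6 rises, those of Batf3 and Clec9a, held whichever array was left out. Flt3 (-0.28), Siglech (-0.28 at its brightest probe, with 0.15 at its other probe) and Itgae (-0.14) had differences of the opposite sign and did not pass. Itgae was dim, at -5.18 and -5.07 on the MaR1 arrays, against -5.20 and -4.77 on the Veh arrays. The summed signal was 66.6 to 66.9 times the 75th percentile on the MaR1 arrays, against 45.9 to 49.3 on the Veh arrays. Batf3 alone, a transcription factor gene, made up 24.1 to 25.2 of it on the MaR1 arrays, against 6.63 to 6.68 on the Veh arrays. Without Batf3 the sums overlapped, at 41.4 to 42.8 on the MaR1 arrays, against 39.2 to 42.7 on the Veh arrays. Siglech had the largest share of the full sum, 45.1%, and so weighs heavily in the sums without Batf3. Its levels were 4.57 and 4.51 on the MaR1 arrays, against 4.92 and 4.72 on the Veh arrays. Sums without both genes were not made. The marker Xcr1 was not measured above the filter. The part of dendritic cells in the rise of Mrc1 was not tested, and in a bulk sample more cells of a type and more RNA per cell cannot be told apart.

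Lrp1 encodes a large receptor of the low-density lipoprotein receptor family that clears protease-inhibitor complexes, apolipoprotein E remnants and, with calreticulin, apoptotic cells. Its levels were 2.21 and 2.05 on the MaR1 arrays, against 2.79 and 2.65 on the Veh arrays. The groups did not overlap, although the replicates of each group were more spread than for Stab1 or Msr1. Lrp1 was 1.51-fold lower with MaR1, a difference of -0.59 ± 0.09 (adjusted p = 0.0183). The call was lost without MaR1 replicate 2 (adjusted p = 0.0705), Veh replicate 1 (0.0759) or Veh replicate 2 (0.0510), and when dim probes were not filtered out (0.0594). Hepatocytes and stellate cells also express Lrp1. The summed signal of 8 measured hepatocyte markers was 21.1 to 21.5 on the MaR1 arrays, against 24.7 to 26.3 on the Veh arrays. Of these markers 0 were higher and 1 lower (Ttr). Cps1 was below the filter, and the listed symbol Tf was not among the RefSeq names used, so that gene was not looked up. The summed signal of 8 measured stellate cell and fibroblast markers was 38.0 to 39.0 on the MaR1 arrays, against 40.8 to 41.0 on the Veh arrays. Of these markers 0 were higher and 2 lower (Reln and Dcn), and Lrat and Des were below the filter. Acta2, which did not pass (-0.06), held 90.7% of the stellate sum. Without Acta2 the sums did not overlap, at 3.21 to 3.27 on the MaR1 arrays, against 4.12 to 4.23 on the Veh arrays. The median difference was -0.27 for the hepatocyte markers and -0.36 for the stellate cell and fibroblast markers. Leaving out any 1 array ended the calls of Ttr, Reln and Dcn, and the shares called, 12.5% and 25% of the measured hepatocyte and stellate markers, stand beside 24% of all genes. Their part in the fall of Lrp1 was not tested.

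**Figure D2:**
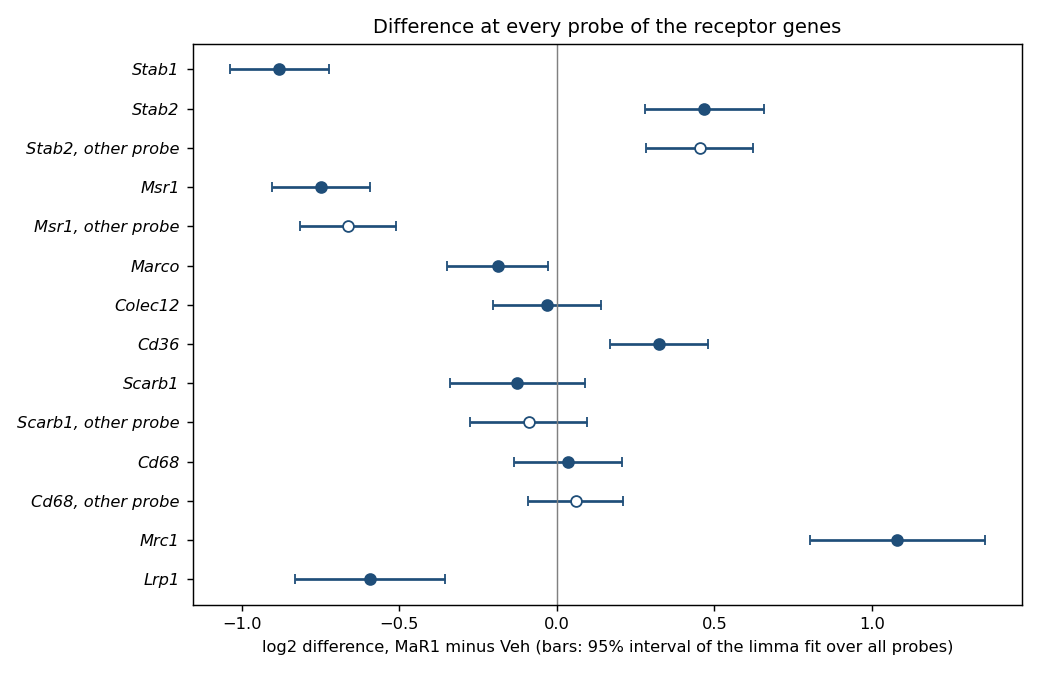
Log2 difference between MaR1 and Veh arrays at each of the 14 probes of the receptor genes (filled, brightest probe of the gene; open, other probe; bars, 95% interval of the limma fit over all probes, n = 2 arrays per group). Where a gene has a second probe (Stab2, Msr1, Scarb1 and Cd68), both give a difference of the same sign.

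The spread of the 10 differences was wide against the genes as a whole. Differences between the 5th and 95th percentile of all genes tested ran from -0.60 to 0.65, and Mrc1, Stab1 and Msr1 lay outside that range. Lrp1 (larger in size than 89.2% of all genes), Stab2 (83.9%) and Cd36 (72.6%) lay inside it, as did Marco (51.8%), Scarb1 (37.5%), Cd68 (11.2%) and Colec12 (9.62%). The scanner software's own error estimate was 10.0% of the signal at each of these genes' brightest spots, and it does not cover variation between cultures.

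**Figure D3:**
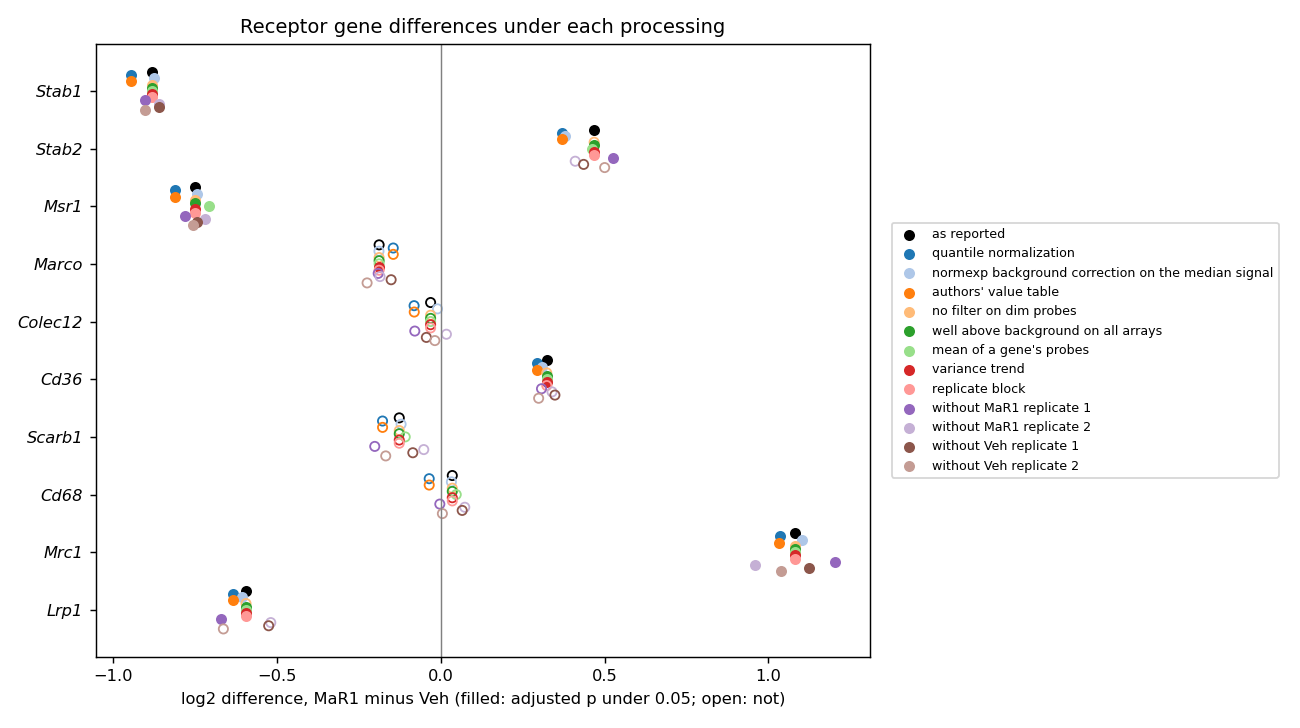
Log2 difference between MaR1 and Veh of each receptor gene as reported (black) and under 12 other ways of processing (colours; filled, adjusted p under 0.05 by limma; open, not). Stab1, Msr1 and Mrc1 stay called throughout, Stab2, Cd36 and Lrp1 keep their sign but not every call, and Cd68 and Colec12 lie around 0.

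Other scavenger and endocytic receptor genes were likewise mixed. Of 32 listed, 25 were measured, and 6 rose, 4 fell and 15 did not pass (40% called, beside 24% of all genes), with a median difference of -0.03. Olr1, which encodes the oxidised lipoprotein receptor LOX-1, rose 4.15-fold. Its levels were 3.97 and 4.22 on the MaR1 arrays, against 2.04 and 2.06 on the Veh arrays, a difference of 2.05 ± 0.10 (adjusted p = 0.00271), with 2.36 at its other probe. Vldlr, a lipoprotein receptor gene, rose by 0.68 ± 0.07 on the log2 scale. Its signal was dim, with levels of -3.86 and -3.96 on the MaR1 arrays, against -4.55 and -4.63 on the Veh arrays. Cd163, the haemoglobin-haptoglobin receptor gene, rose by 1.38 ± 0.15 at its brightest probe, with 0.12 at its other probe, and the call was lost without MaR1 replicate 2 (adjusted p = 0.0568). Lrp8 rose by 0.61 ± 0.09, a call lost without MaR1 replicate 1 (0.0603), MaR1 replicate 2 (0.0808) or Veh replicate 1 (0.0630). It was dim as well, at -3.73 and -3.64 on the MaR1 arrays, against -4.40 and -4.20 on the Veh arrays. Among these 10 calls, 2 of 6 rises and 0 of 4 falls held whichever array was left out.

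Genes for ligands of the receptors were called about as often as genes in general. Of 18 measured, 3 rose, 2 fell and 13 did not pass, so that 27.8% were called beside 24% of all genes, with a median of 0.09. Thbs1, which encodes thrombospondin-1, a ligand of CD36 and LRP1, rose by 1.01 ± 0.07. Lpl, the lipoprotein lipase gene, had a difference of -0.83 ± 0.06 and Apoc2, its cofactor gene, of -0.94 ± 0.08, and both fell. The calls of Thbs1, Lpl and Apoc2 held whichever array was left out. Calr, the calreticulin gene, rose by 0.26 ± 0.05, a call lost without MaR1 replicate 1 (0.117), MaR1 replicate 2 (0.111), Veh replicate 1 (0.153) or Veh replicate 2 (0.157).

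Adaptors, chaperones and signalling partners of the receptors numbered 27 measured genes, of which 7 rose, 2 fell and 18 did not pass (33.3% called, beside 24% of all genes), with a median of 0.10. Tlr2, a co-receptor of CD36 in sensing bacterial lipids, had levels of -0.16 and -0.13 on the MaR1 arrays, against 1.77 and 1.72 on the Veh arrays. It fell by 1.89 on the log2 scale (SE 0.06, adjusted p = 0.00150). Fabp4, which encodes a fatty acid carrier of macrophages, rose by 1.29 ± 0.07 and Cd9, a tetraspanin gene whose product associates with CD36, by 0.58 ± 0.06. Src, a tyrosine kinase gene, rose by 0.52 ± 0.06 at its brightest probe, with 0.09 at its other probe, and lost the call without Veh replicate 1 (0.0538) or Veh replicate 2 (0.0571). The 7 include Cav1, the caveolin-1 gene, named after its values were seen, which was well above background on both MaR1 arrays but on only 1 of 2 Veh arrays and so passed the filter through the group where it was higher. Its difference of 0.86 ± 0.20 (adjusted p = 0.0466) was no longer called without MaR1 replicate 1 (0.112), MaR1 replicate 2 (0.163) or Veh replicate 2 (0.0662). Among these calls, 2 of 7 rises and 1 of 2 falls held whichever array was left out.

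Of 18 transcription factor genes known to act on these receptors or on lysosomal genes, 3 rose, 4 fell and 11 did not pass (38.9% called, beside 24% of all genes), with a median of -0.05. Irf4 rose by 1.85 ± 0.11 and Klf4 by 1.20 ± 0.10, both factors of alternative macrophage activation. Maf and Stat6, on the same list and named after their values were seen, had differences of the opposite sign. Maf fell (-0.43 ± 0.08), a call lost without any 1 array, and Stat6 did not pass (-0.19 ± 0.07, adjusted p = 0.120). Rxra, the common partner of PPAR and LXR receptors, fell (-0.95 ± 0.06, with -0.33 at its other probe). Pparg itself, named after its value was seen because it acts on Cd36, differed by -0.17 ± 0.06 and did not pass (adjusted p = 0.105). Tfeb, a lysosomal master regulator, fell (-0.41 ± 0.06, with -0.29 to -0.07 at its other probes). The Tfeb call was lost without MaR1 replicate 1 (0.0649), MaR1 replicate 2 (0.0665), Veh replicate 1 (0.0852) or Veh replicate 2 (0.0655). Among these calls, 2 of 3 rises and 1 of 4 falls held whichever array was left out.

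**Figure D4:**
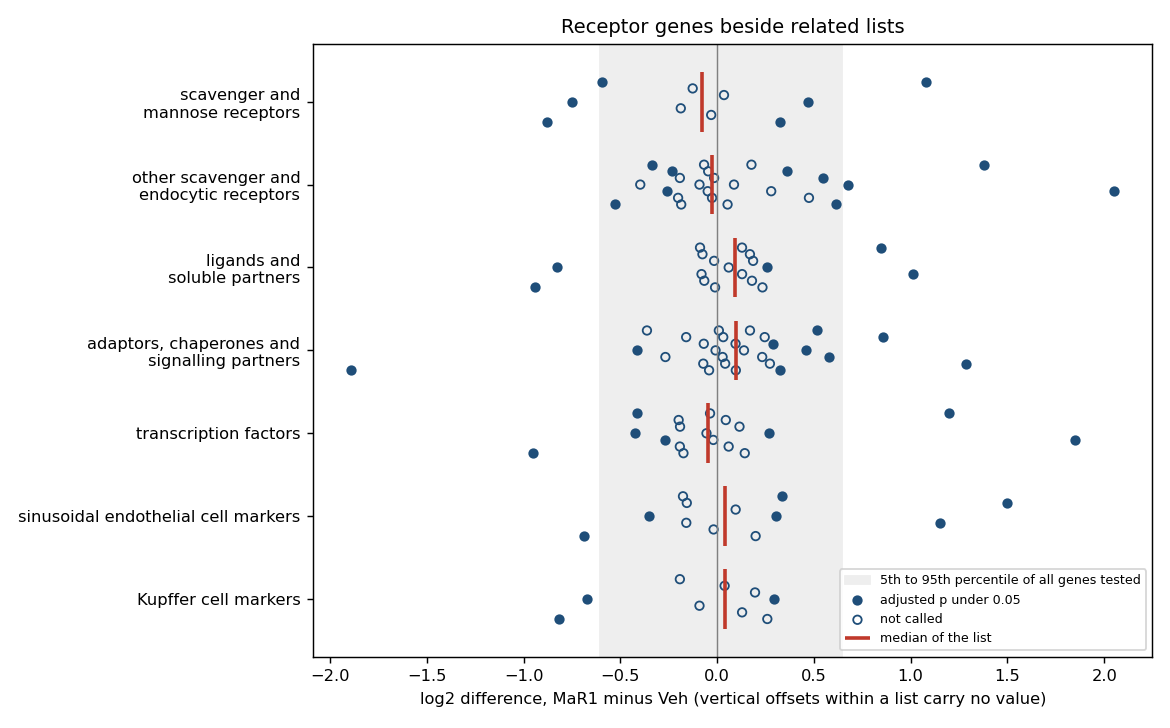
Log2 difference between MaR1 and Veh for each measured gene of the receptor list, 4 related lists and the sinusoidal endothelial and Kupffer cell markers (filled, adjusted p under 0.05 by limma; open, not called; red line, median of the list; grey band, 5th to 95th percentile of all genes tested). Every list has called genes on both sides of 0 and a median between -0.08 and 0.10.

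Since Stab2 is itself an endothelial marker, the other markers of sinusoidal endothelial cells were read beside it. Of 13 listed, 12 were measured, and 4 rose, 2 fell and 6 did not pass (50% called, beside 24% of all genes), with a median of 0.04. Of these calls, 2 of 4 rises, those of Dnase1l3 and Pecam1, and 0 of 2 falls held whichever array was left out, and Ehd3, Cdh5 and Eng lost theirs without any 1 array. Their summed signal was 142.1 on both MaR1 arrays, against 129.0 to 134.7 on the Veh arrays. Egfl7, which did not pass (0.10), held 59.3% of that sum and moved it most. Without Egfl7 the sums were 56.8 to 59.4 on the MaR1 arrays, against 51.9 to 54.6 on the Veh arrays. Dnase1l3 rose by 1.50 ± 0.06 and Pecam1 by 1.15 ± 0.06, genes that macrophages and dendritic cells can express as well. Gpr182, a sinusoidal endothelial receptor gene, had a difference of -0.69 ± 0.09, a call lost without MaR1 replicate 1 (0.0554), MaR1 replicate 2 (0.0510) or Veh replicate 2 (0.0527). Lyve1, which encodes another hyaluronan receptor, differed by -0.16 ± 0.05 and did not pass (adjusted p = 0.111). Kdr was not measured. The part of endothelial cells in the change of Stab2 was not tested.

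Kupffer cell markers other than Marco were all measured (9 of 9) and were well above background on the 4 arrays. Of these, 1 rose, 2 fell and 6 did not pass (33.3% called, beside 24% of all genes). Their summed signal was 642.6 to 655.5 on the MaR1 arrays, against 680.0 to 702.5 on the Veh arrays. Cd5l, which did not pass (-0.19), held 42.3% of that sum and moved it most. Without Cd5l the sums overlapped, at 381.6 to 386.7 on the MaR1 arrays, against 382.1 to 395.1 on the Veh arrays. Clec4f, restricted to Kupffer cells, differed by 0.04 ± 0.07 (adjusted p = 0.693). The macrophage marker gene Adgre1 (-0.67 ± 0.06) and the iron exporter gene Slc40a1 (-0.82 ± 0.08) fell, and both falls but not the rise, that of Csf1r, held whichever array was left out. Among other cell types, 3 of 5 measured B cell markers rose (2 of them whichever array was left out) and 0 fell. Thus 60% were called, beside 24% of all genes. Pax5 (-0.42) and Cd79a (0.44) did not pass, and Cd79a was well above background on both MaR1 arrays but only 1 Veh array. The summed signals of the B cell markers were 3.43 to 3.63 on the MaR1 arrays, against 1.93 to 2.17 on the Veh arrays. Cd79b, which rose (0.74), held 70.8% of that sum. Without Cd79b the sums were 0.997 to 1.124 on the MaR1 arrays, against 0.531 to 0.611 on the Veh arrays. Of 6 measured T and NK cell markers 1 rose and 2 fell (50% called, beside 24% of all genes). The rise but neither fall held whichever array was left out. The summed signal was 7.47 to 7.58 on the MaR1 arrays, against 8.65 to 8.68 on the Veh arrays. Of 6 measured neutrophil markers 0 passed by limma, beside 24% of all genes. None reached an unadjusted p under 0.05, as 9789 of the 24055 genes tested did. The summed signal of these markers was 1.94 to 1.97 on the MaR1 arrays, against 1.89 to 1.91 on the Veh arrays. Without S100a9, which moved that sum most, the groups overlapped, at 1.129 to 1.194 on the MaR1 arrays, against 1.190 to 1.289 on the Veh arrays. Across the arrays, 54.4% to 55.6% of probes were well above background, and the signal at the 75th percentile was 946 and 847 on the MaR1 arrays, against 961 and 988 on the Veh arrays.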

How the data were processed

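Kupffer cell RNA of 4 samples (2 per group, by the treatment named in each sample's title) was labelled with Cy3 and hybridised to single-colour Agilent arrays. Intensity values were made by the authors with Agilent Feature Extraction 11.0.1.1, per the submitters' processing notes and the file headers. That software subtracts background and spatial trends array by array, and no scaling between arrays is applied in that column. The 0 or 1 marks for well above background, saturation and outliers are deposited per spot and were used as they stand. The authors' deposited value table holds log2 values for 29710 probes; its scale and filter are not given in the sources used here. Set against the scanner output, its columns had r of at least 0.999996 with the log2 signal of their own array, medians of 9.07, and sorted values within 0.00217 of each other, which points to quantile normalization. All its probes passed as well above background on the 4 arrays. The values served as an alternative.

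Each array's processed signal was divided by its 75th percentile over non-control spots and log2-transformed. Spots of 1 probe were averaged, and probes with all spots marked as outliers on an array were left out (56587 of 56605 remained). A probe was kept where both arrays of a group, MaR1 or Veh, had it well above background. Names came from RefSeq genes of assembly GRCm38.p6, matched by accession for 32980 probes (58.3%) and used for names only. The brightest kept probe stood for a gene, and every probe of the receptor genes is given too. Genes were tested with limma 3.58.1 in R 4.3.3 (lmFit, eBayes, two-sided, threshold 0.05, 2.27 prior degrees of freedom, prior SD 0.07), with version 1.17.8 of the data.table package for reading, after the fit had been tested on simulated data. Figures used matplotlib 3.10.9 in Python 3.11.15. Normexp (offset 50), planned for the mean signal of a spot, was run on the median, since the files used hold no mean column. Promoter sequences are from RefSeq. The number of arrays limits the precision.

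The members, lists and tests were chosen with earlier results of these data known. Named genes were all 10 receptors and, per related list, up to 4 with the smallest p, or every called one where 6 or fewer were called; cell type markers were named for what they mark, with values known. A called gene of the ligand list is not reported here. The lists were other scavenger and endocytic receptors, ligands, adaptors and signalling partners, transcription factors, and markers of Kupffer, sinusoidal endothelial, hepatocyte, stellate, dendritic, B, T and NK cells and neutrophils. C1qa, Cd5l and Timd4 are each on 2 of these lists.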

Additional observations from a re-analysis of the deposited data

How the results depend on the processing

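Stab1, Msr1 and Mrc1 kept their direction and their call under all 12 alternatives (the authors' value table, quantile normalization, normexp on the median signal, averaging a gene's probes, dropping or tightening the filter on dim probes, a variance trend, the replicate block and leaving out each array), with differences between -0.94 and -0.86, -0.81 and -0.71, and 0.96 and 1.20. Stab2 (0.37 to 0.53) and Lrp1 (-0.67 to -0.52) kept their direction and lost the call in 4 settings each, Cd36 (0.29 to 0.35) in 6. Marco was called in 1, the variance trend. Uncalled values changed sign for Cd68 in the authors' value table (-0.035) and after quantile normalization (-0.035) and, without any 1 array, ran from -0.0025 to 0.074 for Cd68 and from -0.079 to 0.018 for Colec12. The number of receptor genes called higher was 1 with no filter on dim probes and 1 to 2 without any 1 array, against 3. Over all genes, 2699 were higher and 3069 lower, against 1087 and 972 with no filter, 4525 and 4670 with a variance trend, and 1011 to 1336 and 916 to 1491 without any 1 array, where fewer samples enter the fit. The other causes were not tested. With no filter the median difference of all genes moved to -0.14; under the other settings it stayed within -0.03 to 0.01. With the replicate number as a block, 1766 genes were higher and 1926 lower and Cd36 lost its call (adjusted p = 0.0603), while the other 5 receptor calls held. Samples of the same number did not deviate together (r = -0.03), so the numbers were not taken as pairs. Signal over background was no limit for the receptor genes, whose 14 probes were well above background on every array.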
